A study of Mus musculus with 6 samples.

Results

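The type I hair keratins are 7 of the 54418 genes in the table, Krt31, Krt32, Krt33a, Krt33b, Krt34, Krt35 and Krt36, taken by name and described gene by gene and as a sum. RNA was sequenced from mouse AKP organoids, 3-dimensional epithelial cultures. The labels do not spell out the name AKP, which the Control and GATA6KO libraries share. The genotype label was Control for 3 libraries and GATA6KO for 3, and the title names the knocked-out gene as GATA6, a zinc-finger factor that binds GATA motifs in endoderm-derived epithelia. The labels give neither the lesion made in the gene, nor the number of clones, nor whether the replicates were separate cultures, so the spread between replicates may be technical. The family was chosen because its members were higher in GATA6KO, so the values of that comparison are given here as a description with no test.

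Keratins are the intermediate filament proteins of epithelia. An acidic type I chain pairs with a basic type II chain, and neither forms filaments alone. Simple epithelia such as the gut lining use Krt18, Krt19 and Krt20 with Krt7 and Krt8. Hair keratins are a separate, cysteine-rich branch made by cells that build the hair shaft, nail and the filiform papillae of the tongue, where they are embedded in keratin-associated proteins encoded by the Krtap genes. Among the type I hair keratins, Krt35 appears earliest, in the hair matrix and the lower cortex and cuticle. Krt32 belongs to the cuticle. Krt31, Krt33a, Krt33b and Krt34 belong to the cortex, the bulk of the shaft. Krt36 is a keratin of the cortex, of nail and of the filiform papillae.

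The 7 genes lie in a row on the minus strand of chromosome 11 (mm10, GENCODE M21 annotation), in the order Krt33a, Krt33b, Krt34, Krt31, Krt32, Krt35 and Krt36. Krt33a begins the row at 100011195 to 100016212, and Krt33b follows at 100023634 to 100029868. Krt34 spans 100037347 to 100041554 and Krt31 spans 100046646 to 100050551. After the widest gap in the row, 30296 bases, Krt32 spans 100080848 to 100088226. Krt35 at 100092193 to 100096241 and Krt36 at 100102007 to 100105626 end it. The whole row covers 94432 bases, and each gene has 7 exons in its coding transcript.

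The coding sequences of Krt33a, Krt33b, Krt34 and Krt31 are near copies of each other, which matters for every single value below. Identity was 93.3% between Krt33a and Krt33b, and 87.0% to 90.8% among the other pairs of these 4. Pairs with Krt32, Krt35 or Krt36 reached 64.6% to 70.5%. The first 90 coding bases of the 4 near copies, all in exon 1, are shown here 5′ to 3′ from the GENCODE M21 transcripts, at chr11:100016058-100016147, chr11:100029736-100029825, chr11:100041407-100041496 and chr11:100050393-100050482 on the minus strand. Capitals mark the 13 positions at which the 4 sequences are not all the same.
Krt33a: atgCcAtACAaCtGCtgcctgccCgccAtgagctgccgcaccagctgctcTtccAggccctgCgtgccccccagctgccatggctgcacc
Krt33b: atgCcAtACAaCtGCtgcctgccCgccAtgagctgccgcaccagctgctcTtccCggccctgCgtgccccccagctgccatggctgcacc
Krt34: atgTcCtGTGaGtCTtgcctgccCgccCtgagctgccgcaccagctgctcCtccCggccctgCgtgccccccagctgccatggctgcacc
Krt31: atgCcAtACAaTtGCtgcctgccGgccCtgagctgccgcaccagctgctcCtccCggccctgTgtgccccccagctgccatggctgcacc
The last 27 bases shown were the same in all 4 genes. Of the 31-base words in the transcripts of Krt33a, 28.9% occur in another gene too. That share was 36.4% for Krt33b, 42.0% for Krt34 and 38.9% for Krt31, against 0.591% for Krt32, 5.77% for Krt35 and 1.77% for Krt36. An estimated count divides reads that match several transcripts, so the values of the first 4 genes depend on that division more than those of Krt32 and Krt36.

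RefSeq promoters (GRCm38.p6) were at hand for 5 of the 7 genes, Krt33b, Krt34, Krt31, Krt32 and Krt36. The 250 bases before the transcription start are shown 5′ to 3′. The 5 genes lie in the same row and were all higher in GATA6KO, the comparison on which the family was chosen. Capitals mark matches to 5 motifs searched on both strands. The first is the core promoter element TATAAA. For Wnt effectors of the TCF and LEF family the letters CTTTGA were searched, and as their variant also CTTTGT. For zinc-finger factors of the Gata6 family the letters were AGATAA, and for some of the homeobox factors they were TTTATG. The runs are chr11:100029869-100030118 for Krt33b, chr11:100041555-100041804 for Krt34, chr11:100050552-100050801 for Krt31, chr11:100088270-100088519 for Krt32 and chr11:100105627-100105876 for Krt36, all on the minus strand.
Krt33b: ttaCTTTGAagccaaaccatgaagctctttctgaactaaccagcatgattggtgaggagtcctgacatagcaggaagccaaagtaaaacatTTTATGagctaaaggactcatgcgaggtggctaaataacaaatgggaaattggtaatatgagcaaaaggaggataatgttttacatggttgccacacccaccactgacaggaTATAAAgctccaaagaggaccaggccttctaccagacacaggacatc
Krt34: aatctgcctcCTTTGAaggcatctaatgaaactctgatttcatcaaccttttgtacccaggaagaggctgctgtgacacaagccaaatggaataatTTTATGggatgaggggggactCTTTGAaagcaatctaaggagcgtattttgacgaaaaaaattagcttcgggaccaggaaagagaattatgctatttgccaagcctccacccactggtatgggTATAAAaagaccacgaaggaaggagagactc
Krt31: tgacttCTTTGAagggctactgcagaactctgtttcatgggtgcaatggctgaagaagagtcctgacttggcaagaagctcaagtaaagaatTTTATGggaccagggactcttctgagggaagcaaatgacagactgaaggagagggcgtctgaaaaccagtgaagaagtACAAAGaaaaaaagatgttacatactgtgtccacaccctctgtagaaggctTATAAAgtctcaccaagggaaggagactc
Krt32: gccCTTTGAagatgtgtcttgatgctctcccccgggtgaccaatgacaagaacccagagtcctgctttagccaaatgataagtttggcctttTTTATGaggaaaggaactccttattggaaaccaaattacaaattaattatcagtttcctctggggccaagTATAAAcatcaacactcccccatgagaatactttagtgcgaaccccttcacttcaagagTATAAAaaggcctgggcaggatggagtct
Krt36: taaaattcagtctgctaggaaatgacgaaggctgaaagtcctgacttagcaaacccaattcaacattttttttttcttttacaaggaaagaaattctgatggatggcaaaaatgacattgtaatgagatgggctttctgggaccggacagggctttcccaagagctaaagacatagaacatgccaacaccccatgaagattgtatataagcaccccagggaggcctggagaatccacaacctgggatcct
The motif TATAAA occurred in 4 of the 5 promoters, those of Krt33b, Krt34, Krt31 and Krt32. In the same 4 promoters lay CTTTGA, and likewise TTTATG. Over the windows from 250 bases before to 50 bases after the start, TATAAA occurred in 13.6%, CTTTGA in 16.0% and TTTATG in 11.9% of all 32851 promoters. TATAAA began 29 to 31 bases before the start in Krt34, Krt31 and Krt32, and 47 bases before it in Krt33b. On the sense strand, 1.99% of all promoters had it beginning 40 to 21 bases before the start.

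The outermost CTTTGA and the TTTATG matches lay at like distances. That CTTTGA began 247 bases before the start in Krt33b and Krt32, 244 in Krt31 and 240 in Krt34. Krt34 had another CTTTGA at 133 bases, and Krt32 another TATAAA at 88 bases, that none of the other promoters had at a like distance. TTTATG began 159 bases before the start in Krt33b, 158 in Krt31 and Krt32, and 154 in Krt34. Of all promoters, 0.304% had CTTTGA on the sense strand beginning 247 to 240 bases before the start, and 0.140% had TTTATG beginning 159 to 154 bases before it. These windows were fitted to the matches after they were seen, so the shares are low in part by choice. CTTTGT occurred in 18.7% of all promoters and in 1 of the 5, as ACAAAG on the shown strand of Krt31. AGATAA occurred in 11.2% of all promoters and in 0 of the 5, and the window of Krt36 matched none of the 5 motifs. Near forms of the motifs were not searched, and their shares over all promoters were not measured. TGATAA, which differs from AGATAA in its first letter, can be read in the shown window of Krt32. TATATAAG, a near form of the core promoter element, can be read in that of Krt36. A match is a match of letters only, and its absence says only that these letters are not in the window. Aligned over their whole windows, the promoters were 44.4% to 58.7% identical, far less than the coding sequences of the near copies.

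The 6 libraries held 22973245 to 31328415 estimated counts each. Gata6 was at 25.3, 23.2 and 28.0 CPM (counts scaled by TMM to a library total of 1000000) in Control and at 14.3, 16.0 and 8.24 CPM in GATA6KO, so its RNA was lower but present. Mitochondrially encoded genes took 1.85% to 1.88% of counts in Control and 2.07% to 2.84% in GATA6KO. The genes of chromosome 14 stood apart in GATA6KO replicate 2, where the median of 355 genes was -0.90 (log2, against the Control mean). The genes of chromosome 11 outside the keratin locus were at 0.01, 0.03 and 0.01 in the 3 GATA6KO libraries (846 genes). The part of these differences in the keratin values was not tested.

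All 7 type I hair keratins were higher in every GATA6KO library than in every Control library, a separation that 20.3% of all genes tested showed. Their summed level was 38.0, 25.2 and 24.1 CPM in Control and 771, 809 and 710 CPM in GATA6KO. The means were 29.1 ± 7.71 and 763 ± 49.98 CPM (SD, n = 3 each), a 26.2-fold difference. The sum rested on 724 to 867 counts in a Control library and on 21276 to 24665 in a GATA6KO library. Its coefficient of variation over the GATA6KO libraries was 6.55%, while those of the single genes ran from 18.0% to 96.3%. In bulk RNA, more cells that express these genes and more RNA per cell cannot be told apart.

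By edgeR's quasi-likelihood test over 14714 genes, 6.92% of genes were called higher in GATA6KO and 5.47% lower at an adjusted p threshold of 0.05. Of the 7 hair keratins 6 passed the filter on low counts, the exception being Krt35, and all 6 were called higher. Each of the 6 had at least 21 counts in every Control library. The family was chosen on this comparison, so nothing is read from these counts or from the separation of the groups. Log2 fold changes of the 6 genes ran from 3.55 to 5.35 with a median of 4.65, and the median over all genes tested was 0.02.

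**Figure D1:**
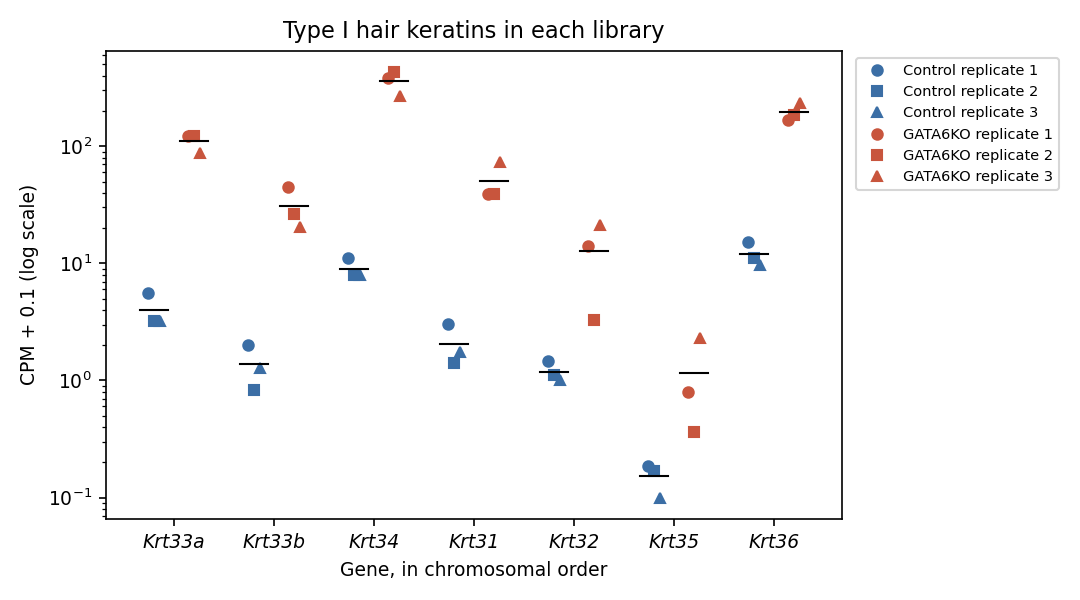
Level of each type I hair keratin in each library, as CPM + 0.1 on a log axis, in chromosomal order. Points are libraries, shaped by replicate number and coloured by genotype, and bars are group means. No gene has an overlap between the 3 GATA6KO and the 3 Control libraries, and Krt32 and Krt35 have the widest spread within GATA6KO.

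Krt34, a keratin of the hair cortex, showed the widest difference. It was at 10.997, 7.87 and 7.80 CPM in the Control libraries and at 383, 430 and 270 CPM in the GATA6KO libraries. The lowest GATA6KO library was 24.6 times the highest Control library. The means were 8.89 ± 1.83 and 361 ± 82.3 CPM, a log2 fold change of 5.35 ± 0.25 (SE). These values rested on 227 to 251 counts in Control and 8099 to 13128 in GATA6KO.

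Krt36, the keratin shared by hair, nail and filiform papillae, was the most abundant of the family in Control. It was at 15.2, 11.1 and 9.50 CPM in Control and at 167, 186 and 235 CPM in GATA6KO. Its log2 fold change of 4.04 ± 0.23 (SE) was lower than those of the cortex keratins, and its GATA6KO libraries were the closest together. The means were 11.9 ± 2.94 and 196 ± 35.3 CPM. Few of its sequence words occur elsewhere, so the division of reads bears little on it.

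Krt33a and Krt33b, neighbouring near copies of the cortex group, differed in level but not in direction. Krt33a was at 5.48, 3.12 and 3.13 CPM in Control and at 123, 123 and 87.0 CPM in GATA6KO (log2 fold change 4.84 ± 0.28, SE). Krt33b was at 1.93, 0.728 and 1.17 CPM in Control and at 44.9, 26.3 and 20.5 CPM in GATA6KO (log2 fold change 4.60 ± 0.46, SE). For both genes GATA6KO replicate 3 was the lowest of its group, and still 15.9 times the highest Control library for Krt33a and 10.6 times for Krt33b.

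Krt31, the remaining cortex keratin, had the opposite order among the GATA6KO libraries. It was at 2.94, 1.32 and 1.63 CPM in Control and at 38.9, 39.2 and 73.4 CPM in GATA6KO (log2 fold change 4.70 ± 0.41, SE). Replicates 1 and 2 of GATA6KO were nearly level and replicate 3 was highest. The lowest GATA6KO library was 13.2 times the highest Control library.

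Krt32, the cuticle keratin, was the least separated of the 6 genes that passed the filter. It was at 1.36, 1.005 and 0.9004 CPM in Control and at 13.9, 3.18 and 21.05 CPM in GATA6KO (log2 fold change 3.55 ± 0.68, SE). GATA6KO replicate 2, with 97 counts, was 2.34 times the highest Control library, which had 31. Krt32 shares 5136 bases of its span with Gm11571, an antisense gene on the plus strand that had 2, 2 and 0 counts in Control and 66, 81 and 47 in GATA6KO. These bases include introns, and the overlap of exons was not measured. Whether the counting used strand is not given in the sources used here, so reads of any shared exon bases may have gone to either gene.

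Krt35, the keratin of the hair matrix and earliest shaft, stayed close to the detection limit. It had 2, 2 and 0 counts in Control and 21, 8 and 66 counts in GATA6KO, or at most 0.0876 and 2.20 CPM. The ratio of the summed counts, per total, was 21.5 with an exact 95% interval of 8.11 to 80.4 that covers counting error only. GATA6KO replicate 3 held most of its counts. Krt35 did not pass the filter because of the 8 counts in GATA6KO replicate 2, and it was not in the main fit.

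Per kb of transcript, which allows levels to be compared between genes, the order of the family differed between the groups. In Control the mean CPM per kb was 7.14 for Krt36, 5.53 for Krt34, 2.32 for Krt33a and 1.24 for Krt31. Krt33b followed at 0.806, Krt32 at 0.654 and Krt35 at 0.0219. The libraries of Krt36 and Krt34 overlapped, as did those of Krt33a and Krt31, of Krt31 and Krt33b and of Krt33b and Krt32. In GATA6KO the order began with Krt34 at 224 ± 51.2 CPM per kb, then Krt36 at 117 ± 21.1 and Krt33a at 66.0 ± 12.4. Krt31 was at 31.9 ± 12.5, Krt33b at 19.3 ± 8.05, Krt32 at 7.64 ± 5.40 and Krt35 at 0.441 ± 0.425. There, Krt31 and Krt33b were the only neighbours in the order whose libraries overlapped.

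The same per-kb scale places the genes among all others. Krt34 ranked 8134 of 26960 genes with a count in Control and 246 of 27763 in GATA6KO. Krt36 went from rank 7337 to rank 503, and Krt33a from rank 10166 to rank 1027. Krt35 went from rank 22221 to rank 13308, which left it near the middle of the genes with a count.

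As a share of the family's summed counts, Krt34 took 29.0%, 31.2% and 32.3% in the Control libraries and 49.7%, 53.2% and 38.1% in the GATA6KO libraries. Krt36 took 40.02%, 44.02% and 39.4% in Control and 21.7%, 22.98% and 33.2% in GATA6KO. Exact 95% intervals for Krt34, which cover counting error only, were 28.9% to 35.9% in Control replicate 3, the highest Control share, and 37.4% to 38.7% in GATA6KO replicate 3, the lowest GATA6KO share. For Krt34 and Krt36, GATA6KO replicate 3 lay between the Control libraries and the other GATA6KO libraries. For Krt31 it did not, with 10.3% in GATA6KO replicate 3 beside 5.23% to 7.73% in Control and 4.85% and 5.04% in the other GATA6KO libraries.

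**Figure D2:**
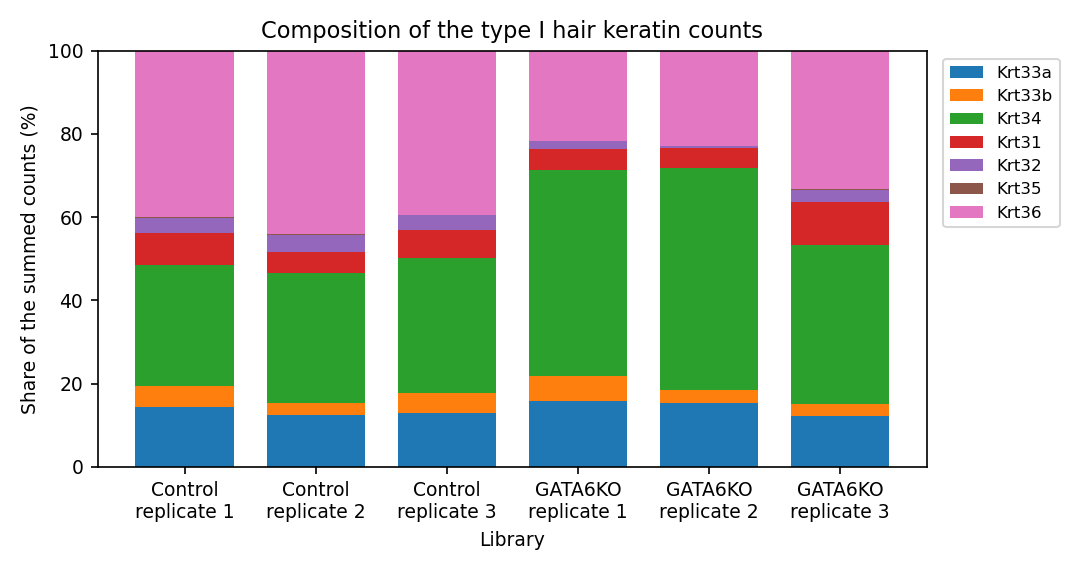
Share of each gene in the summed counts of the 7 type I hair keratins, in percent, 1 bar per library. Krt34 and Krt36 make up most of every bar. The share of Krt34 is 29.0% to 32.3% in Control and 38.1% to 53.2% in GATA6KO.

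The GATA6KO libraries differed among themselves in which members were high, and the division ran along the row on the chromosome. In GATA6KO replicate 3, Krt33a was at 0.707, Krt33b at 0.576 and Krt34 at 0.664 times the mean CPM of replicates 1 and 2. Krt31 was at 1.88, Krt32 at 2.46, Krt35 at 4.56 and Krt36 at 1.33 times it. From the 3 genes at one end of the row to the 4 at the other, the ratio passed from below 1 to above 1. Exact 95% intervals of these ratios, which cover counting error only, all left out 1, with the nearest bounds at 0.739 for Krt33a and 1.29 for Krt36. These intervals do not cover the spread between replicates 1 and 2, which were joined for the ratio. Those 2 libraries were at 13.9 and 3.18 CPM for Krt32, 0.702 and 0.262 CPM for Krt35 and 44.9 and 26.3 CPM for Krt33b. For the other members they were closer together.

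Together, Krt33a, Krt33b and Krt34 took 71.4% and 71.7% of the family's counts in GATA6KO replicates 1 and 2 and 53.2% in replicate 3, against 46.5% to 50.1% in Control. This division of the family was made after the values were seen and was not tested. The sum hides it, since the sum of replicate 3 was 710 CPM beside 771 and 809. GATA6KO replicate 3 also had the least Gata6, and its share of mitochondrial counts, 2.81%, was close to that of replicate 2. The part of either in the pattern was not tested.

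Type II hair keratins, the pairing partners, showed both orders as well. In GATA6KO replicate 3, Krt84, a partner chain of tongue and nail, was at 1.94 times the mean of replicates 1 and 2. Krt81 was at 0.740, Krt83 at 0.714, Krt86 at 0.679 and Krt87 at 0.635 times that mean. These 4 type II genes thus varied as the Krt33a, Krt33b and Krt34 group did, and Krt84 as Krt31 and Krt36 did. Krt82, which did not pass the filter, was at 1.45 times that mean on 10 counts. With 3 libraries this is a description only.

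**Figure D3:**
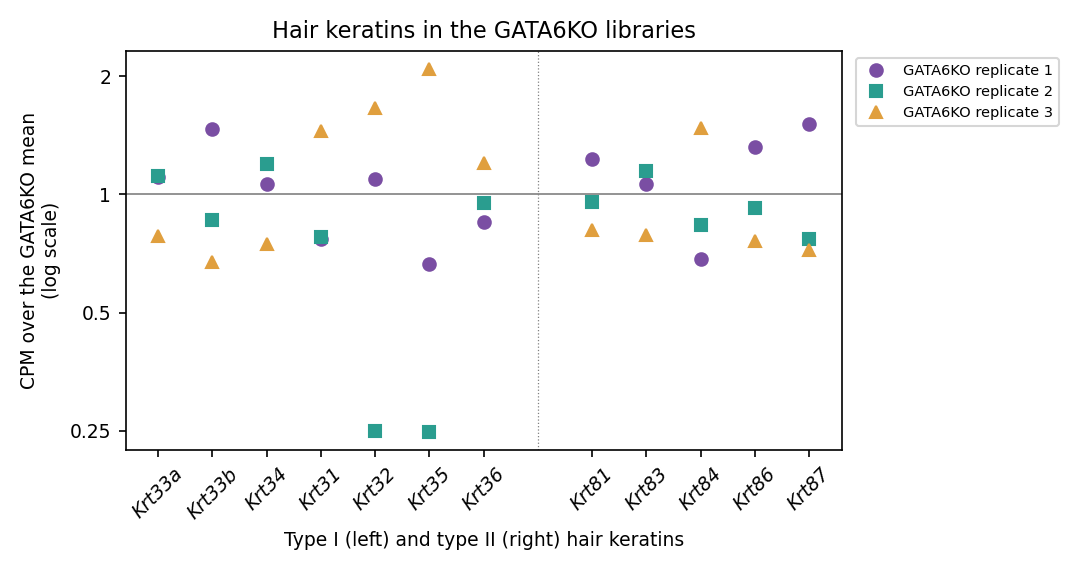
Level of each hair keratin in each GATA6KO library over the mean of the 3, on a log axis, with type I genes on the left in chromosomal order and the 5 type II genes that passed the filter on the right. Replicate 3 (triangles) is below the mean for Krt33a, Krt33b and Krt34 and above it for Krt31, Krt32, Krt35 and Krt36. Among the 5 on the right it is above the mean for Krt84 alone.

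Of 7 type II hair keratins listed, 1 was not analysed here. Of the other 6, 5 passed the filter and all 5 rose, beside 6.92% of all genes. The log2 fold changes of the 5 ran from 3.65 (Krt84, adjusted p = 0.00402) to 6.51 (Krt86). Krt82, a cuticle keratin that did not pass, had 0 counts in each Control library and 3, 11 and 10 counts in the GATA6KO libraries. All 5 calls held when each library was left out in turn. Set against the sum of these 6 genes, the type I hair keratins stood at 0.785, 0.939 and 0.845 per kb in Control and at 0.831, 1.13 and 1.03 in GATA6KO. The ranges of this ratio of RNA levels overlapped between the groups.

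The simple epithelial keratins stayed the main keratins of the organoids. Krt18, Krt19 and Krt20, the type I chains of simple epithelia, summed to 4522 ± 309 CPM in Control and 3238 ± 323 CPM in GATA6KO. Per kb, the hair keratins made up 0.801%, 0.508% and 0.448% of all type I keratin in Control and 16.0%, 19.4% and 16.3% in GATA6KO. Of 6 simple keratins, 2 fell and 0 rose, beside 5.47% and 6.92% of all genes. Krt18 fell by 0.84 on the log2 scale (adjusted p = 0.00971) and its partner Krt8 fell by 0.55 (adjusted p = 0.0256). Krt8 lost its call without any 1 of the Control libraries, and Krt18 without Control replicate 2 or 3, so that 0 simple keratins were called without either of the last.

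**Figure D4:**
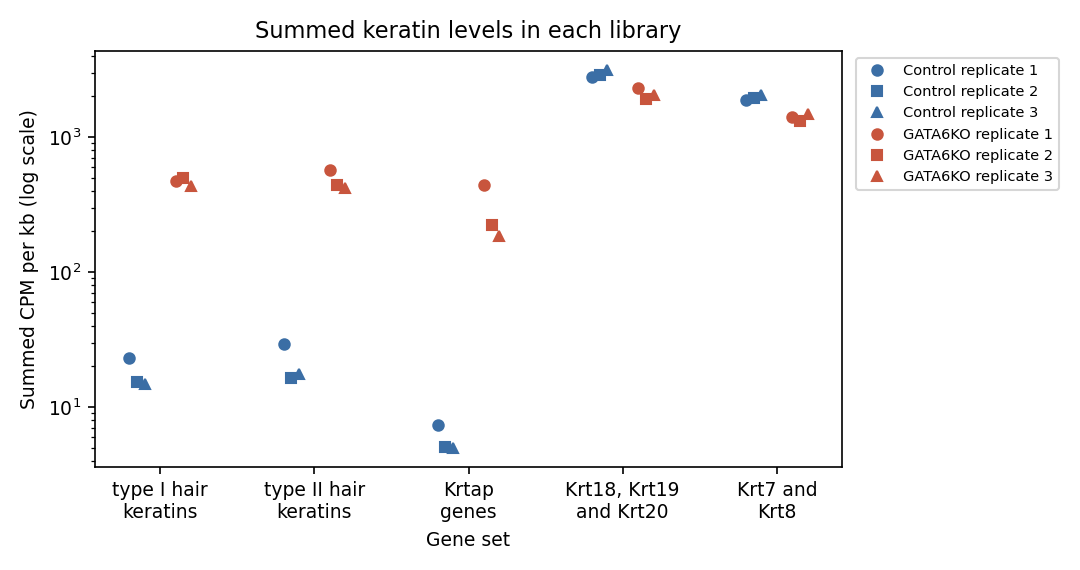
Summed level of each gene set in each library, in CPM per kb on a log axis, with points shaped by replicate number and coloured by genotype. The type I and type II hair keratins lie close together within each group, and the simple keratins lie above them in all 6 libraries.

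Of the 21 other type I keratins, 10 were tested, 3 rose and 1 fell, beside 6.92% and 5.47% of all genes. Krt15, a keratin of basal cells and of the hair follicle bulge, rose by a log2 fold change of 4.74 ± 0.38 (SE, adjusted p = 0.00183). It went from 5.08, 3.81 and 2.77 CPM to 122, 128 and 60.8 CPM, lowest in GATA6KO replicate 3 like Krt33a, Krt33b and Krt34. Krt39, a late hair keratin, rose by 1.03 (adjusted p = 0.0304), and Krt13, of the lining of the mouth and oesophagus, by 0.64 (adjusted p = 0.0468). The gene that fell was Krt18. Krt15 alone was called higher without Control replicate 1, 2 or 3, and 5 genes were without GATA6KO replicate 1.

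Several type I keratins of skin and of the inner root sheath were near or at 0. Krt17, of the outer root sheath and injured skin, had at most 1 count in a library. Krt24 and Krt25 were at 0 in all 6. Krt14, of basal epidermis, was at 9.41 ± 0.720 CPM in Control and 12.9 ± 11.4 CPM in GATA6KO, a difference that changed sign with the test used. Krt40, a hair keratin that lies among the Krtap genes, had 3 counts over all 6 libraries together.

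The Krtap genes encode the matrix proteins in which hair keratin filaments are set. Of 58 in the table, 44 had a count, 22 were tested and 20 rose, beside 6.92% of all genes. The fitted log2 fold changes of these 20 ran from 5.25 to 8.83. Most of the 22 had under 10 counts in every Control library and passed the filter through GATA6KO, so the number that rose is partly set by it. Among the 22 tested, those at 0 in all 3 Control libraries were Krtap22-2, Krtap4-8 and Krtap8-1, and their fitted folds are no bounds. The sum of all 58 Krtap genes was 339, 189 and 148 CPM in the GATA6KO libraries, a coefficient of variation of 44.6%. Of the 22 tested, 20 were highest in GATA6KO replicate 1 and 0 in replicate 3, while 4 of the 7 type I hair keratins were highest in replicate 3.

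Genes known from hair shaft formation moved in part. Of 28 listed regulators and shaft genes, 22 were tested, 8 rose and 1 fell, beside 6.92% and 5.47% over all genes. Msx2, a homeobox factor of the hair matrix, rose by 4.32 on the log2 scale, from 1.02 to 20.3 CPM, with an adjusted p of 0.00153. Foxn1, the nude factor that acts on hair keratin genes, rose from 20.7 to 69.5 CPM with a log2 fold change of 1.75 and an adjusted p of 0.0068. Lef1, the Wnt effector of hair precursor cells, rose from 11.2 to 41.8 CPM with one of 1.91 and an adjusted p of 0.00654.

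Structural genes of the shaft were among those that rose. Dsg4, the desmosomal cadherin of the hair cortex, rose by 3.89 on the log2 scale (adjusted p = 0.00305), from 2.89 to 42.6 CPM, and S100a3, a calcium-binding protein of the cuticle, rose by 2.40 (adjusted p = 0.00582). These 5 genes kept their calls without each library in turn. Dlx3 (2.11, adjusted p = 0.0113), a homeobox factor, Bmp4 (2.89, adjusted p = 0.0372), a growth factor of the matrix, and Hephl1 (3.38, adjusted p = 0.0291), a copper oxidase, also rose. All 3 lost the call without any 1 Control library, which left 5 genes called higher. Hephl1 had 2, 1 and 4 counts in Control and 36, 10 and 38 in GATA6KO. It passed the filter through GATA6KO, so its call is partly set by the filter. Gata3, a GATA factor of the inner root sheath, fell by 2.40 (adjusted p = 0.0365) and also lost its call without any 1 Control library or GATA6KO replicate 2.

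Hoxc13, the homeobox factor that binds hair keratin promoters in the follicle, had 0 counts in all 6 libraries, and so had its neighbour Hoxc12. A count of 0 allows up to 3 counts, or 0.0958 to 0.131 per 1000000 counts of a library. The type I hair keratins together reached 710 to 809 CPM in GATA6KO at the same depth.

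The inner root sheath, the sleeve that moulds the shaft, was hardly represented. Of 12 listed genes, 3 were tested and 1 rose, beside 6.92% of all genes. It was Tgm3, a transglutaminase of the sheath and shaft (log2 fold change 3.09, adjusted p = 0.0194). Its call was lost without any 1 Control library. Krt25, Krt72, Krt73, Krt74 and Tchhl1 were at 0 in all 6 libraries, and Krt71 had 1 count. Tchh, trichohyalin, was at 16.2 CPM in Control and 14.05 CPM in GATA6KO.

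Markers of other cell types that could carry hair keratin RNA were given as measured, and their part in the result was not tested. Of 10 epidermal genes, 5 were tested and 1 rose, beside 6.92% of all genes. It was Lor, which encodes loricrin of the cornified layer (log2 fold change 2.10, adjusted p = 0.00194). The whole list summed to 20.2 to 21.1 CPM in Control and 24.7 to 51.5 CPM in GATA6KO. The defining basal genes Krt5 and Trp63 were at mean levels of at most 0.0660 CPM in either group, and Krt1 at 0.0111 CPM at most. Krt14, the partner of Krt5, was at the levels given above, Krt10, the partner of Krt1, at 3.31 and 3.97 CPM, and Sbsn at 4.41 and 3.59 CPM. Fibroblast and dermal papilla genes had 0 of 8 tested, with sums of 0.434 to 0.485 CPM in Control and 0.301 to 0.634 CPM in GATA6KO and Lum at 0.

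Sebaceous genes had 3 of 6 tested and 0 called, with sums of 513 to 557 CPM in Control and 417 to 675 CPM in GATA6KO and Awat1 at 0. Most of that sum was Scd1 and Soat1, which many epithelia express. Melanocyte genes had 1 of 6 tested, Pmel, which was not called, with Tyrp1 and Mlana at 0 and sums of 0.728 to 1.23 and 0.656 to 1.505 CPM. Immune genes had 0 of 5 tested, with sums of 0.167 to 0.416 and 0.368 to 0.656 CPM. All 10 intestinal epithelium markers were tested, 4 fell (Cdh1, Cdh17, Krt8 and Krt18) and 0 rose, beside 5.47% and 6.92% over all genes. All 4 lost their call without Control replicate 2 and without Control replicate 3. The sum of the 10 was 7415 to 7879 CPM in Control and 4740 to 5556 CPM in GATA6KO, most of it from Krt8 and Krt18. Among those not called, the gut factor Cdx2 was at 117 CPM in Control and 84.7 CPM in GATA6KO. Hnf4a, also a gut factor, was at 327 and 166 CPM (adjusted p = 0.0501). Villin (Vil1) was at 453 and 417 CPM and Krt20 at 3.64 and 1.43 CPM.

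The hair keratins lie inside the type I keratin locus of chromosome 11, which was taken to run from Krt222 to Krt42 at 99232761 to 100269871. Within 500 kb on either side, 26 genes were tested, 2 rose and 2 fell, with a median log2 fold change of 0.06. Rapgefl1, a guanine nucleotide exchange factor homologue, and Gm12359 rose, and Nr1d1, a clock repressor, and Eif1, a translation initiation factor, fell. The number called in the flanks was 0 to 10 when libraries were left out in turn. Over all genes tested, 12.4% were called in either direction. Inside the locus, 12 of 14 tested Krtap genes rose, as did 11 of 13 tested genes without a Krt or Krtap symbol. Of these 11, all but Gm11571 and Gm12347 are Gm-named protein-coding genes that lie among the Krtap genes. Most of both sets were near or at 0 in Control and passed the filter through GATA6KO, so these counts are largely set by the filter.

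The nearest other keratins moved unequally. Krt15 begins 94.4 kb and Krt13 80.0 kb beyond the start of Krt34, and Krt19, between Krt15 and Krt14, was at 3393 CPM in Control beside 2608 CPM in GATA6KO, a log2 fold change of -0.38 with an adjusted p of 0.0861. Gm12347, a long noncoding gene on the same strand, ends 144 bases before the start of Krt36 and had 7, 7 and 4 counts in Control and 118, 196 and 167 in GATA6KO. Its log2 fold change was 4.54 beside 4.04 for Krt36. Part of the promoter window of Krt36 shown above is therefore annotated as transcribed.

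**Figure D5:**
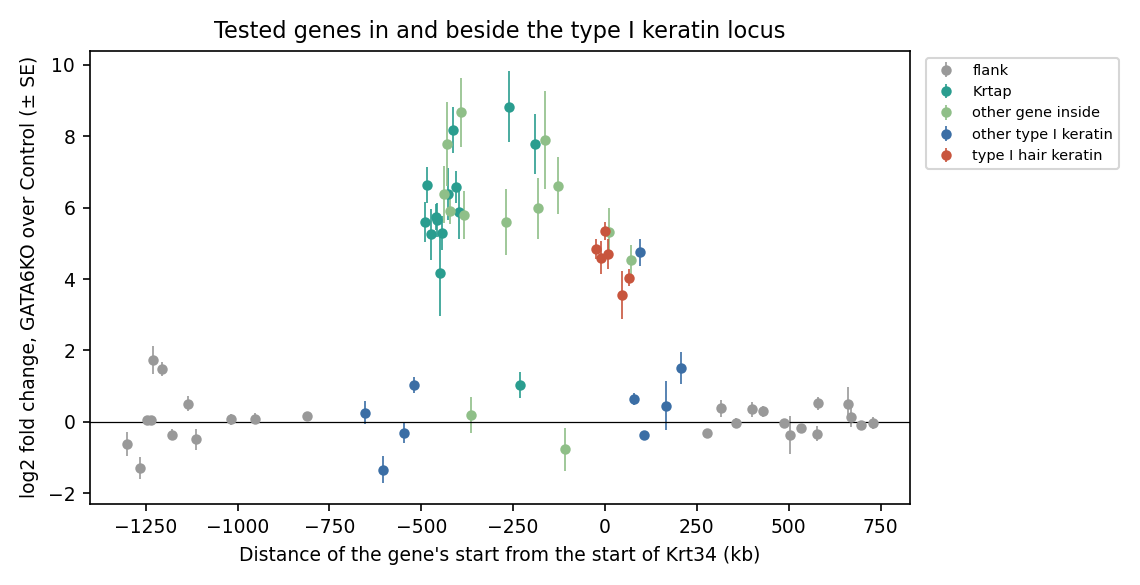
Log2 fold change (GATA6KO over Control, bars are the SE) of each tested gene in the type I keratin locus and within 500 kb of it, against the distance of its start from the start of Krt34 in kb. The hair keratins sit at 3.55 to 5.35 around 0 kb, most Krtap genes lie higher to their left, and genes of the flanks have a median of 0.06.

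Genes whose profile over the 6 libraries was most like that of the summed type I hair keratins were sought by a distance. It was the Euclidean distance between log2(CPM + 0.1) values centred on the Control mean. The members and genes with predicted or clone names, such as Gm and Rik names, were left out. This left 12261 of the 14714 genes tested, so Gm-named genes of the locus could not appear. Gprc5d, an orphan receptor known from hair keratinocytes, was nearest at a distance of 0.624. It was at 0.570, 0.381 and 0.367 CPM in Control and at 19.4, 13.8 and 9.84 CPM in GATA6KO. Dapl1 followed at 0.763, with 5.94 CPM in Control and 208 CPM in GATA6KO. Krt15 at 0.782 and the type II hair keratin Krt87 at 0.875 came next.

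The remaining 6 of the 10 nearest genes were Krtap4-16 (0.941), Krtap4-2 (1.10), Sprr2b (1.16), Cd40lg (1.18), Plekhg1 (1.21) and Krtap9-3 (1.24). Of the 10 nearest, Krt15 and the 3 Krtap genes lie on chromosome 11 with the hair keratins, while Gprc5d lies on chromosome 6, Dapl1 on chromosome 2 and Krt87 on chromosome 15. The distance uses the difference between the groups, so a gene high in GATA6KO by a like amount is near by construction. It is a description over 6 libraries.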

How the data were processed

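Strand-marking libraries were prepared with the NEBNext Ultra II Directional kit after poly(A) selection, per the labels' protocols. The deposited table gives estimated counts per gene, as whole numbers without scaling between libraries. The submitters' processing notes list Salmon 1.3.0 and mm10 and state no role for either. Which annotation was used, how transcripts were joined into genes, who rounded the values and whether strand was used is not given in the sources used here. Sample titles gave the group and the replicate number.

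Of 54418 gene identifiers, 54166 matched GENCODE M21 and 24064 were at 0 throughout. edgeR's filterByExpr defaults (10 counts at the median depth in at least 3 libraries, 15 in total) left 14714 genes. GATA6KO was compared with Control by TMM scaling and the quasi-likelihood test with no block. P-values were adjusted by Benjamini and Hochberg's method across the 14714 genes, and all adjusted p-values are from this test. The biological coefficient of variation was 0.245. The steps were tested on simulated data, where fitted folds followed the simulated ones, some changed genes were missed and the share of false calls was above the adjusted p threshold. R 4.3.3, edgeR 4.0.16, limma 3.58.1, DESeq2 1.42.0, Python 3.11.15, SciPy 1.17.1 and Biopython 1.88 were used. Levels per kb use the longest transcript of a gene. Identities come from global alignments (match 2, mismatch -1, gap opening -5, extension -0.5).

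The 7 members and 12 lists were chosen with earlier results of these data known. Genes named were the 7 members, the called genes of each list or otherwise its 2 most abundant, and the 10 genes of most alike profile. Krtap genes, locus genes and intestinal markers are given mostly as counts. Genes at or near 0, genes named for their neighbourhood and Gm-named genes were added after their values were seen. Alternatives were other scalings, tests and filters, the replicate block, other length measures, the sum without Krt34 and each library left out in turn.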

Additional observations from a re-analysis of the deposited data

How the results depend on the processing

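The hair keratins stayed higher in GATA6KO under every alternative. Over the 7 genes, 81 of 82 log2 fold changes lay within 1 SD of the main value, 0 reversed, and they ran from 2.97 to 5.54. Krt35 has no value in the main fit, so its value without a filter, 4.31, stood in as its main value. The SD is the gene's log2 spread over the GATA6KO libraries, a wide limit for Krt32 (1.41) and Krt35 (1.34). The log2 ratio of the sum, 4.71, was 4.58 to 4.96 with each library left out in turn and 4.31 without Krt34. By the same rule, with an SD of 0.095, the sum moved without each of the Control libraries and without Krt34. No alternative changed the division of reads that match several transcripts. Counts of calls moved more. The genes called over the whole table, 1823, were 3238 by DESeq2, 827 with the replicate number as a block, and 332 to 4360 with each library left out, 425, 389 and 332 without Control replicates 1, 2 and 3 and 4360 without GATA6KO replicate 1. Of 123 keratin and hair genes outside the members, 40 were called, 34 with the replicate block and 26 to 48 with each library left out, 26 of them without Control replicate 3. Same-numbered libraries did not deviate together (correlations -0.01, 0.07 and -0.09), so the numbers give no pairing. Of 43 called list genes, 27 kept their call in every fit that left out 1 library.

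Genes that were not called changed sign. Krt14, at 0.46, was -0.080 by limma-voom, -0.0077 with the replicate block and -0.45 to 0.95 with libraries left out. With libraries left out, Tchh, at -0.21, ran from -0.68 to 0.14, and Krt10, at 0.26, from -0.12 to 0.46. Soat1, at -0.01, was 0.069 by library totals alone, 0.011 without a filter and -0.19 to 0.13 with libraries left out. Pmel, at -0.03, was 0.034 by library totals alone and -0.70 to 0.41 with libraries left out. The causes were not tested. Depth limits Krt35, Krt82 and the Krtap genes, which had few or no counts in Control.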
